A study of Mus musculus with 192 samples.

Results

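Gata1, Gata2, Zfpm1, Tal1, Lmo2, Ldb1, Tcf3 and Lyl1 encode the 2 GATA factors of early blood cells and the proteins that assemble with them on DNA. These 8 genes were taken by symbol from a table of 49466 genes, and their levels were followed from cell to cell in 2 kinds of mouse erythroid progenitor. GATA factors are zinc-finger proteins that bind the sequence GATA in enhancers and promoters. GATA2 serves stem cells and early progenitors, and as red cell progenitors mature GATA1 takes its place at many shared sites, an exchange that includes the Gata2 gene itself. TAL1 or LYL1 pairs with the E protein encoded by Tcf3, LMO2 bridges that pair to GATA1 or GATA2, LDB1 holds the assembly together and can join distant sites, and FOG-1, the product of Zfpm1, binds GATA1 directly.

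Single cells came from the liver of C57/Bl6J mouse embryos on day 14.5, the main site of red cell formation at that age. Colony-forming units-erythroid (CFU-E), the later progenitor, filled 1 plate of 96 wells, and burst-forming units-erythroid (BFU-E), the earlier one, filled the other. Before sorting, both kinds had been depleted of cells with lymphoid, granulocyte, monocyte or late red cell antigens, Sca-1, CD16/32 or CD41, the surface protein encoded by Itga2b, and they were sorted on CD117, CD71 and CD24. The sources used here state neither the gates nor how many animals were used, and cell type, plate and sequencing lane cannot be told apart. Each cell type is therefore 1 sample, no test was made between them, and every interval below is an exact 95% interval of counting error alone, with the reads amplified by PCR and not tagged by molecule, so that they are not independent.

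The 95 CFU-E wells used held a median of 999396 counts (5825 to 2992101) and the 96 BFU-E wells a median of 1099619.5 (6473 to 3864040). After shallow wells were left out, 89 CFU-E and 92 BFU-E cells remained, and each was thinned to 100000 counts, so that 1 count in a cell equals 10 CPM (counts per 1000000). Clustered without the 8 genes, the BFU-E plate split into 53 erythroid-like cells, led by genes such as Mfsd2b, Car1, Ermap, Epor and Klf1, and 39 granulocyte-monocyte-like cells, led by genes such as Emb, Cd34, Mpo, Flt3, the immunoglobulin gene Ighm and Csf1r. The myeloperoxidase gene Mpo stood at 0 CPM in CFU-E, 48.7 CPM in erythroid-like BFU-E and 4040 CPM in granulocyte-monocyte-like BFU-E cells. Lymphoid markers, 12 in all, had a mean summed level of 17.5 CPM in erythroid-like and 558 CPM in granulocyte-monocyte-like BFU-E cells, where 9 of the 12 had a count; Cd3e and Pax5 were among those at 0. At least 3 of these markers were found in 0 of 53 erythroid-like and 10 of 39 granulocyte-monocyte-like BFU-E cells. The CFU-E plate gave no separated clusters, but 3 of its cells held 8 of the 12 lymphoid markers each. These 3 had no count of Gata1, Gata2, Tal1 or Lmo2 after thinning, while Lyl1 stood at 70 to 120 CPM and Tcf3 at 0 to 120 CPM in them. The liver genes Afp and Alb, which progenitors should lack, were at 106 and 58.4 CPM in CFU-E, 96.4 and 101.7 CPM in erythroid-like BFU-E, and 81.03 and 74.9 CPM in granulocyte-monocyte-like BFU-E cells, so counts of this size can come without expression by the cell.

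Gata1 was the most abundant of the 8 genes in erythroid cells and almost missing from the granulocyte-monocyte-like cells. Per cell it ranged from 0 to 1100 CPM with a median of 400 CPM in CFU-E, from 0 to 1050 CPM with a median of 310 CPM in erythroid-like BFU-E, and from 0 to 90 CPM with a median of 0 CPM in granulocyte-monocyte-like BFU-E cells. CFU-E and erythroid-like BFU-E cells overlapped over most of their range, and 86 of 89 CFU-E and 52 of 53 erythroid-like cells had a count, against 9 of 39 granulocyte-monocyte-like cells. The summed level was 426 CPM (413 to 440) in CFU-E and 199.1 CPM (190.1 to 208) in all BFU-E cells, with CFU-E 2.14-fold higher (2.02 to 2.26). Against the erythroid-like BFU-E cells alone, at 340 CPM (324 to 356), CFU-E cells were 1.25-fold higher (1.18 to 1.33). Within the BFU-E plate, Gata1 was 44.2-fold higher (30.9 to 65.7) in erythroid-like than in granulocyte-monocyte-like cells, which stood at 7.69 CPM (5.19 to 10.98). The 3 CFU-E cells with no Gata1 count were the 3 with lymphoid markers, and without them the CFU-E level was 441 CPM.

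Gata2 was highest in erythroid-like BFU-E cells, lower in granulocyte-monocyte-like BFU-E cells and close to absent from CFU-E cells. It ranged from 0 to 40 CPM in CFU-E cells and from 0 to 280 CPM, with a median of 10 CPM, in erythroid-like BFU-E cells, and reached 230 CPM with a median of 0 CPM in granulocyte-monocyte-like BFU-E cells. A single CFU-E cell of 89 had any count, 4 after thinning and 52 before it, against 27 of 53 erythroid-like and 12 of 39 granulocyte-monocyte-like BFU-E cells. That CFU-E cell also had 450 CPM of Gata1 and summed megakaryocyte and mast cell markers of 70 CPM each. It thus held counts of both genes, and whether it expressed both was not tested. Summed over cells, Gata2 was at 0.449 CPM (0.122 to 1.15) in CFU-E and 32.8 CPM (29.2 to 36.7) in all BFU-E cells, with CFU-E 73.04-fold lower (28.2 to 269.8). Against the erythroid-like cells, at 44.5 CPM (39.03 to 50.6), CFU-E cells were 99.1-fold lower (38.2 to 367). Erythroid-like BFU-E cells held 2.63-fold more Gata2 (1.99 to 3.51) than granulocyte-monocyte-like cells, at 16.9 CPM (13.1 to 21.5). Of the counts in the granulocyte-monocyte-like cells, 34.8% came from 1 cell, which had summed granulocyte-monocyte markers of 5710 CPM, mast cell and basophil markers of 850 CPM and megakaryocyte markers of 640 CPM; their part in the difference was not tested.

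**Figure D1:**
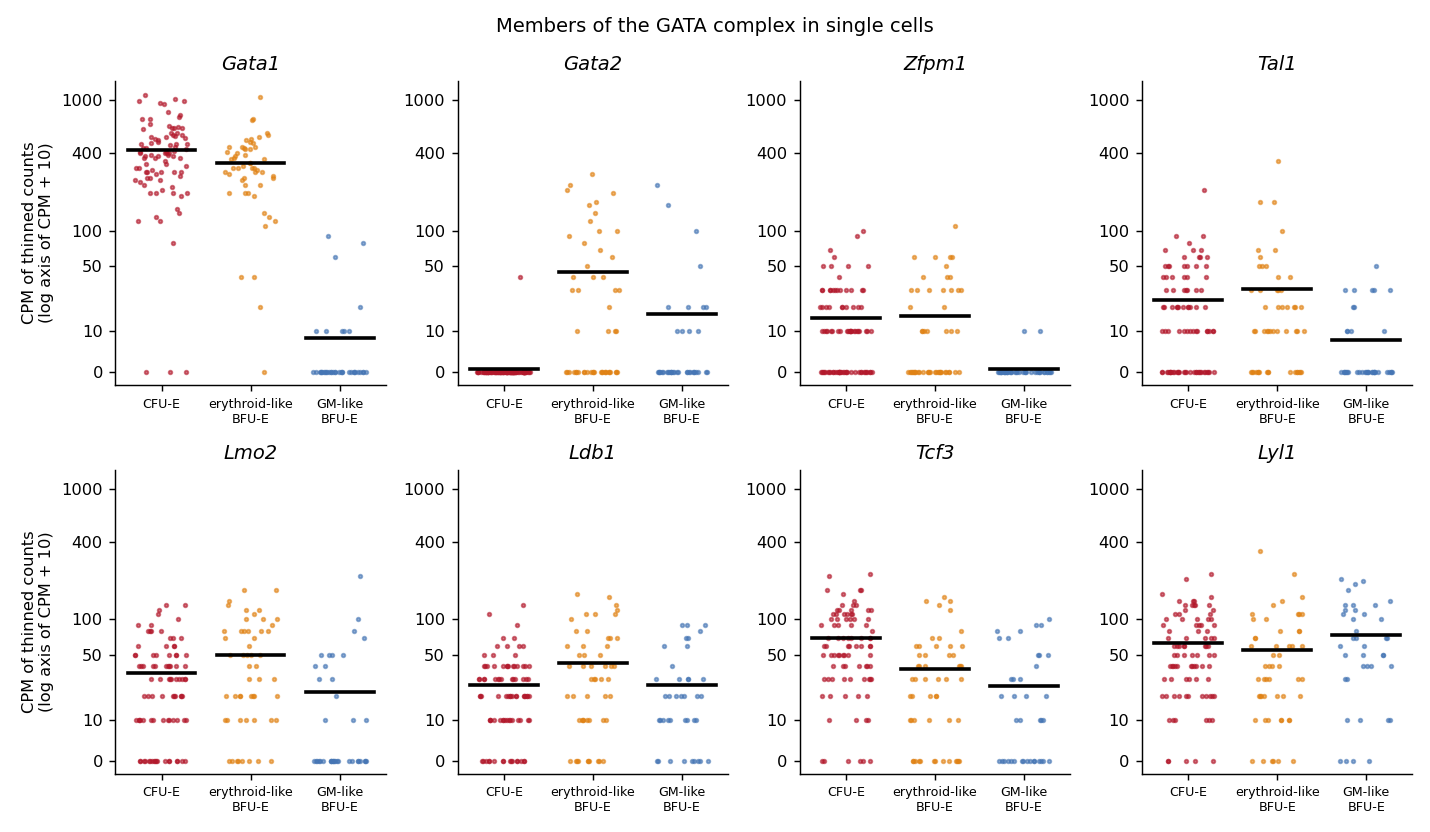
Level of each of the 8 genes in single cells, in CPM of thinned counts on a log axis of CPM + 10, for 89 CFU-E, 53 erythroid-like BFU-E and 39 granulocyte-monocyte-like (GM-like) BFU-E cells; each point is a cell and the black bar is the summed level of the group. Gata1 spreads widely over CFU-E cells, with quartiles at 270 and 540 CPM, and lies at 0 in most GM-like cells. Gata2 has a single CFU-E point above 0.

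The promoters of both GATA genes and of 2 genes they are known to act on show where the letters they bind occur near the start of transcription. A GATA element was searched as AGATAA or the forms that begin with T (TGATAA), end in G (AGATAG) or do both (TGATAG), on either strand, in windows of 250 bases before to 50 after each start, from RefSeq on GRCm38.p6. Such an element was present in 29.8% of 32851 mouse windows. Gata1, the distal and proximal windows of Gata2, Epor, the erythropoietin receptor gene, and Klf1, which encodes an activator of red cell genes, are printed 5′ to 3′ on the gene's strand, with any GATA element in capitals.
Gata1, chrX:7967861-7968160, minus strand: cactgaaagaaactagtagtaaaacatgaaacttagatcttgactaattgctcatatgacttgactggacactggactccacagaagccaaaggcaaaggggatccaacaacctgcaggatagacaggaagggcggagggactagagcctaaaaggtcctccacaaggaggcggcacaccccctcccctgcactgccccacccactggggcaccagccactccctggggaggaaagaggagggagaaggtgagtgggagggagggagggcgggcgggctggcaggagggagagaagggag
Gata2 distal, chr6:88193641-88193940, plus strand: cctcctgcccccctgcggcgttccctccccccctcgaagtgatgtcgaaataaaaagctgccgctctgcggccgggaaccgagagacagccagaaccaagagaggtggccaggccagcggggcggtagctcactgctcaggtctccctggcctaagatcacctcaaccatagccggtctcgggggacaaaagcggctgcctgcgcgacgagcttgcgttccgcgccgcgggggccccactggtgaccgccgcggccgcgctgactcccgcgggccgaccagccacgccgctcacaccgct
Gata2 proximal, chr6:88198414-88198713, plus strand: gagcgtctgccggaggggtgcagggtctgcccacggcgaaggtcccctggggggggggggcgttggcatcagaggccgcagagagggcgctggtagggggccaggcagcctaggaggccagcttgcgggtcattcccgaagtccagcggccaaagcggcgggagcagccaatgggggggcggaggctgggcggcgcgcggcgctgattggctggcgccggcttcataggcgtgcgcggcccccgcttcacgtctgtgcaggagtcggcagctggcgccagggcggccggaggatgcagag
Epor, chr9:21963527-21963826, minus strand: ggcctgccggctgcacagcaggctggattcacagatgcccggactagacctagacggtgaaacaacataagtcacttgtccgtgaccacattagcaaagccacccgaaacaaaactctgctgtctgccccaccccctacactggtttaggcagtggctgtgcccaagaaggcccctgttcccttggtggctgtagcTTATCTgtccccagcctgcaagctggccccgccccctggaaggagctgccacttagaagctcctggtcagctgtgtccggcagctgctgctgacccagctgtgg
Klf1, chr8:84901732-84902031, plus strand: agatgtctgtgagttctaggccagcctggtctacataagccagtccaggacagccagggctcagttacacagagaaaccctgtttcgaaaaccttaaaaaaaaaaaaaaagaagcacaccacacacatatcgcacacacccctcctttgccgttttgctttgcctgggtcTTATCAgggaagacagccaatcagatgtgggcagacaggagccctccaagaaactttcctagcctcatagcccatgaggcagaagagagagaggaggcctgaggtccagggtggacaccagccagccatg
The windows of Epor and Klf1 each hold 1 element, read as its complement on the strand shown, and the 3 windows of Gata1 and Gata2 hold none of these letters. Of 11 windows that RefSeq gives for 7 of the 8 genes, 2 held a GATA element, 1 of Tal1 and 1 of Ldb1. An E-box, CANNTG, which TAL1 with an E protein can bind, was in 6 of the 11 and in 72.3% of all windows. A match is a description of these letters and shows no binding.

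Zfpm1, whose product FOG-1 is a cofactor without DNA binding of its own in these complexes, was low in the granulocyte-monocyte-like cells, as Gata1 was. Per cell it ranged from 0 to 100 CPM with a median of 10 CPM in CFU-E, from 0 to 110 CPM with a median of 0 CPM in erythroid-like BFU-E, and from 0 to 10 CPM in granulocyte-monocyte-like BFU-E cells. After thinning, 54 of 89 CFU-E, 25 of 53 erythroid-like and 2 of 39 granulocyte-monocyte-like cells had a count, so the ranges of CFU-E and erythroid-like cells overlapped almost entirely. The summed level was 15.2 CPM (12.7 to 17.95) in CFU-E and 9.35 CPM (7.48 to 11.5) in all BFU-E cells, 1.62-fold higher (1.23 to 2.15). Set against erythroid-like BFU-E cells, at 15.8 CPM (12.6 to 19.6), the ratio was 0.957 (0.724 to 1.27), which spans 1. Between erythroid-like and granulocyte-monocyte-like cells the ratio was 30.9 (8.29 to 259), resting on 2 counts in the granulocyte-monocyte-like cells. Before thinning, 81 of 89 CFU-E, 46 of 53 erythroid-like and 6 of 39 granulocyte-monocyte-like cells had a Zfpm1 count.

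Tal1, Lyl1 and Tcf3 encode the helix-loop-helix partners of the assembly. Tal1, a master regulator of blood formation, ranged per cell from 0 to 210 CPM in CFU-E, 0 to 350 CPM in erythroid-like BFU-E and 0 to 50 CPM in granulocyte-monocyte-like BFU-E cells, with medians of 10, 10 and 0 CPM. Its summed level was 23.7 CPM (20.6 to 27.1) in CFU-E and 20.8 CPM (17.9 to 23.9) in all BFU-E cells; their ratio of 1.14 has an interval of 0.934 to 1.40 that spans 1. Erythroid-like BFU-E cells stood at 30.8 CPM (26.2 to 35.9), 4.28-fold higher (2.86 to 6.65) than granulocyte-monocyte-like cells at 7.18 CPM (4.77 to 10.4). A single erythroid-like cell gave 21.5% of their Tal1 counts. CFU-E over erythroid-like BFU-E was 0.771 (0.625 to 0.952), and without 14 erythroid-like cells that carry at least 3 granulocyte-monocyte markers, left out after the data were seen, the erythroid-like level was 22.1 CPM, below that of CFU-E.

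Lyl1, the close relative of Tal1, hardly differed between the plates. It ranged from 0 to 230 CPM with a median of 50 CPM in CFU-E and from 0 to 340 CPM with a median of 50 CPM in all BFU-E cells. The ranges overlapped from end to end, and the summed levels were 63.6 CPM (58.5 to 69.1) in CFU-E and 63.7 CPM (58.6 to 69.1) in BFU-E cells, and their ratio was 0.998 (0.888 to 1.12). Of the 8 genes it was the one that was higher in granulocyte-monocyte-like BFU-E cells, with erythroid-like cells at 55.8 CPM (49.7 to 62.6) against 74.4 CPM (66.05 to 83.4), a ratio of 0.751 (0.637 to 0.886). Annotated Lyl1 exons share 4 bases with Nfix on the other strand, and whether counting used strand is not given.

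Tcf3, which encodes the E proteins E12 and E47, was higher in CFU-E cells. Values ran from 0 to 230 CPM with a median of 60 CPM in CFU-E, from 0 to 150 CPM with a median of 30 CPM in erythroid-like BFU-E, and from 0 to 100 CPM with a median of 10 CPM in granulocyte-monocyte-like BFU-E cells. The groups overlapped in their lower part, and the cells above 150 CPM were CFU-E. Summed, Tcf3 was at 69.9 CPM (64.5 to 75.6) in CFU-E and 32.3 CPM (28.7 to 36.2) in all BFU-E cells, 2.16-fold higher (1.88 to 2.49), and 1.87-fold higher (1.59 to 2.21) than in erythroid-like BFU-E cells at 37.4 CPM (32.3 to 42.9). Erythroid-like over granulocyte-monocyte-like BFU-E was 1.47 (1.15 to 1.89), at 37.4 against 25.4 CPM.

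Lmo2 and Ldb1 encode the bridging adaptor and the scaffold. Lmo2 ranged from 0 to 130 CPM with a median of 30 CPM in CFU-E, from 0 to 170 CPM with a median of 40 CPM in erythroid-like BFU-E, and from 0 to 220 CPM with a median of 0 CPM in granulocyte-monocyte-like BFU-E cells. The highest Lmo2 cell of the plate was thus granulocyte-monocyte-like, and it alone gave 25.6% of that group's counts. Summed levels were 33.9 CPM (30.2 to 37.98) in CFU-E, 50.6 CPM (44.7 to 56.997) in erythroid-like BFU-E and 22.1 CPM (17.6 to 27.2) in granulocyte-monocyte-like BFU-E cells. CFU-E over erythroid-like BFU-E was 0.671 (0.567 to 0.794), and erythroid-like over granulocyte-monocyte-like cells was 2.29-fold higher (1.79 to 2.96). Over the whole BFU-E plate, at 38.5 CPM (34.6 to 42.7), the CFU-E ratio was 0.882 (0.754 to 1.03).

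Ldb1 was found in most cells of every group. It ranged from 0 to 130 CPM in CFU-E, 0 to 160 CPM in erythroid-like BFU-E and 0 to 90 CPM in granulocyte-monocyte-like BFU-E cells, with medians of 20, 30 and 20 CPM. The groups overlapped throughout, and 73 of 89 CFU-E, 43 of 53 erythroid-like and 30 of 39 granulocyte-monocyte-like cells had a count. Its level was 26.3 CPM (23.03 to 29.9) in CFU-E and 35.8 CPM (32.0 to 39.8) in all BFU-E cells. The ratio was 0.735 (0.619 to 0.872), and it was 0.617 (0.511 to 0.744) against erythroid-like cells at 42.6 CPM (37.3 to 48.6). Erythroid-like over granulocyte-monocyte-like BFU-E was 1.61 (1.27 to 2.06), at 42.6 against 26.4 CPM. Exons of Ldb1 share 177 bases with Pprc1 on the opposite strand, so part of these counts may belong to that gene.

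In the comparison of CFU-E with all BFU-E cells, 2 of the 8 genes, Gata1 and Tcf3, were at least 2-fold higher and 1, Gata2, at least 2-fold lower, where 6.48% and 33.9% of 9458 measured genes were. Against the erythroid-like BFU-E cells 0 of 8 were higher and Gata2 was lower, where 6.33% and 31.5% of 9151 were. Within the BFU-E plate 5 of 8, namely Gata1, Zfpm1, Tal1, Gata2 and Lmo2, were higher in erythroid-like cells and 0 lower, where 8.68% and 14.2% of 9944 were. Without the 10 granulocyte-monocyte-like cells with at least 3 lymphoid markers, left out after the data were seen, 4 of 8 were higher and 0 lower: Gata2, with a ratio of 1.99 (1.504 to 2.66), and Lmo2, at 1.93 (1.49 to 2.52), then lay just under the 2-fold line, Tcf3 passed it at 2.17 (1.58 to 3.02), and Gata1, Zfpm1 and Tal1 stayed above it. The calls of Gata1 and Tcf3 over all BFU-E cells lie near the 2-fold line: the log2 fold of Gata1 was 0.89 in cells with odd and 1.29 in cells with even label numbers, and that of Tcf3 1.26 and 0.91. The first 2 comparisons share the CFU-E cells, and the 8 genes took no part in forming the clusters. Mfsd2b, Samd14 and Epor, among the genes that led the erythroid-like cluster, had rank correlations of 0.80, 0.79 and 0.76 with Gata1 over BFU-E cells. The clusters are thus not independent of Gata1. The median log2 fold of the 8 was 0.09 over all BFU-E cells, beside −0.57 over all measured genes. The TMM scaling (trimmed mean of M values) and median-of-ratios scaling moved CFU-E over BFU-E log2 ratios up by 0.57 and 0.63, and then Lmo2 and Ldb1 turned to higher in CFU-E, at ratios of 1.31 and 1.10 under TMM, Lyl1 stood at 1.49 and Zfpm1 at 2.42. Over erythroid-like cells TMM gave 1.88 for Gata1, 2.81 for Tcf3, 1.16 for Tal1, 1.01 for Lmo2, 1.44 for Zfpm1 and 0.925 for Ldb1, so the direction of Tal1, Lmo2 and Zfpm1 there depends on the scaling, and those of Gata1, Gata2, Tcf3, Ldb1 and Lyl1 do not.

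**Figure D2:**
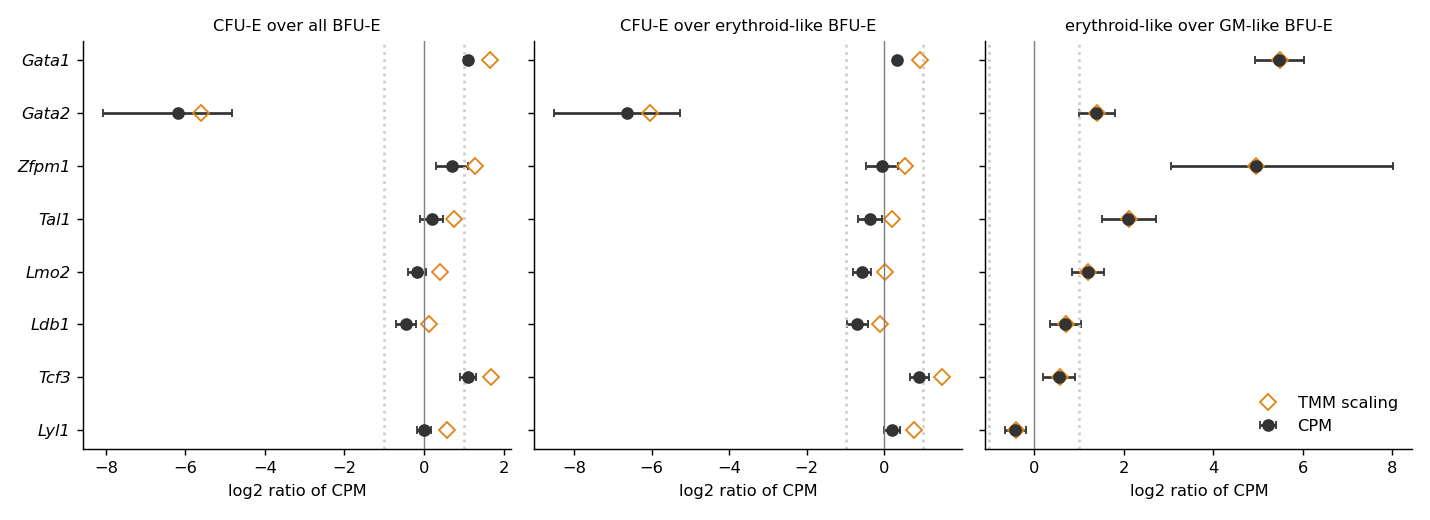
Log2 ratio of summed CPM for the 8 genes in CFU-E over all BFU-E, CFU-E over erythroid-like BFU-E, and erythroid-like over granulocyte-monocyte-like (GM-like) BFU-E cells; filled points with bars are CPM ratios with exact 95% counting intervals, open diamonds are the same after TMM scaling, and dotted lines mark 2-fold. Gata2 lies far to the left in both CFU-E comparisons, Gata1 and Zfpm1 far to the right within the BFU-E plate, and scaling shifts all points of a CFU-E comparison to the right.

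Per kilobase of annotated exon, the levels of the 8 genes can be set beside each other. In CFU-E cells the order of levels was Gata1 at 174.8 CPM per kilobase (169.2 to 180.4), Lyl1 at 35.3 (32.5 to 38.4), Tcf3 at 17.3 (15.97 to 18.7), Lmo2 at 15.7 (13.9 to 17.5), Ldb1 at 5.71 (5.00 to 6.49), Tal1 at 5.41 (4.71 to 6.20), Zfpm1 at 4.33 (3.63 to 5.13) and Gata2 at 0.0833 (0.0227 to 0.213). Neighbours from Tcf3 to Lmo2 and from Ldb1 through Tal1 to Zfpm1 overlapped in their counting intervals. In erythroid-like BFU-E cells the order of levels was Gata1 at 139.5 CPM per kilobase (133 to 146), Lyl1 at 31.03 (27.6 to 34.8), Lmo2 at 23.3 (20.6 to 26.3), Ldb1 at 9.26 (8.09 to 10.55), Tcf3 at 9.25 (8.01 to 10.63), Gata2 at 8.25 (7.23 to 9.37), Tal1 at 7.02 (5.99 to 8.19) and Zfpm1 at 4.52 (3.61 to 5.602). There Ldb1, Tcf3, Gata2 and Tal1 each overlapped their neighbour. In granulocyte-monocyte-like BFU-E cells Lyl1 led at 41.3 CPM per kilobase (36.7 to 46.3), and Gata1 at 3.16 (2.13 to 4.50) and Gata2 at 3.14 (2.42 to 3.99) stood level.

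Read on that per-length scale, the level of Gata1 over that of Gata2 was 2099 (819 to 7708, for counting error alone) in CFU-E, 16.9 (14.8 to 19.4) in erythroid-like BFU-E and 1.01 (0.631 to 1.57) in granulocyte-monocyte-like BFU-E cells. All 4 Gata2 counts behind the CFU-E value came from 1 cell, and without that cell CFU-E had no Gata2 count. With Gata2 then set at the floor of 3 counts over the group the ratio was 2765, a value that the chosen floor fixes and not a limit of counting error. In log2 terms and with 0.5 counts added to each sum, the ratio changed by 7.12 between CFU-E and all BFU-E cells and by 6.79 between CFU-E and erythroid-like BFU-E cells; over the alternatives tried it lay between 6.57 and 8.79 in the first of these and between 6.41 and 8.33 in the second. Cell by cell, 1 of 89 thinned CFU-E cells had counts of both factors, 85 of Gata1 alone, 0 of Gata2 alone and 3 of neither. Among 53 erythroid-like BFU-E cells 26 had both (49.1%, 35.1 to 63.2), 26 Gata1 alone and 1 Gata2 alone. With all counts kept, 41 of these 53 cells had both (77.4%, 63.8 to 87.7), 12 Gata1 alone and 0 Gata2 alone. Granulocyte-monocyte-like cells gave 2 with both, 7 with Gata1 alone, 10 with Gata2 alone and 20 with neither after thinning, and 15, 8, 4 and 12 with all counts. A single read counts as detection when all counts are kept. By that measure Klf1 and Epor, at 4.10 and 1.03 CPM in granulocyte-monocyte-like cells, were also each found in 18 of 39 of them (46.2%, 30.1 to 62.8). A share near this size there is therefore not read as expression, and the source of such reads was not tested. Gata2 was found in 1 of 89 CFU-E cells by the same measure. Whether cells with a read of each factor expressed both was not tested.

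**Figure D3:**
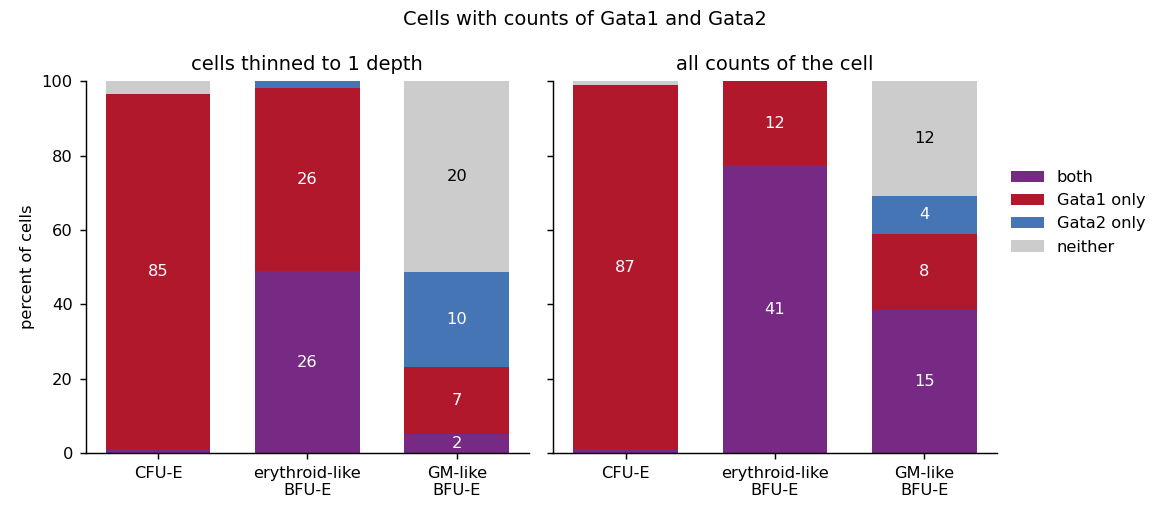
Percent of cells with counts of both GATA genes, 1 of them or neither, in CFU-E, erythroid-like BFU-E and granulocyte-monocyte-like (GM-like) BFU-E cells, at 100000 counts a cell (left) and with all counts (right); numbers in the bars are cells. Nearly all CFU-E cells hold Gata1 alone, and erythroid-like cells hold both or Gata1 alone.

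The exchange was also followed within each plate, along a score of each cell. The score is the mean log2(CPM + 1) of 30 erythroid genes minus that of 28 progenitor genes, with none of the 8 genes among them. Of the 30, 18 are also in the list of genes activated by GATA1 below. On the progenitor side, Cd34, Meis1, Mecom and Cdk6 are also in the list of genes repressed by GATA1 or tied to GATA2. Alad of the erythroid side and Adgrg1 of the progenitor side are among the genes found below to be most like Gata1 or Gata2. The score is thus not independent of genes tied to the 2 factors, and their part in the order was not tested. It ran from −2.41 to 2.72 in erythroid-like BFU-E cells and from 5.02 to 7.89 in CFU-E cells without the 3 lymphoid-marker cells. The plates thus did not meet. The score genes were chosen with earlier results of these data known, so this gap is not read as a result. In 5 bins of erythroid-like BFU-E cells from low to high score (11, 11, 11, 10 and 10 cells), Gata2 stood at 70, 55.5, 78.2, 11 and 1 CPM. Gata2 was thus level over the first 3 bins and low in the last 2: it had a count in 8, 8 and 7 of 11 cells and then in 3 and 1 of 10. The counting interval was 62.5 to 96.6 CPM in the third bin and 5.49 to 19.7 CPM in the fourth, and it leaves out the spread between cells. The median cell of Gata2 was at 40, 40, 30, 0 and 0 CPM in the 5 bins. The highest cell stood at 280 CPM in the third bin and 90 CPM in the fourth, so single cells weigh on these levels. Gata1 in the same bins was at 285, 301, 370, 364 and 386 CPM, while its median cell was at 340, 320, 430, 325 and 310 CPM, so the summed levels and the medians did not follow the same order. Per length, Gata1 over Gata2 was 9.03, 12.01, 10.48 and 73.3 in the first 4 bins, and 855 (152 to 33843) in the last, which rests on 1 count of Gata2. In these cells Klf1 stood at 68.2, 92.7, 204, 189 and 372 CPM and Epor at 60.9, 84.5, 120, 237 and 208 CPM from the lowest to the highest bin.

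Across the 53 erythroid-like BFU-E cells, which share a plate and were thinned to equal depth, Spearman's rank correlation of Gata2 with the score was −0.52, and that of Gata1 was 0.07. With BFU-E cells of odd and of even label numbers each clustered anew, the Gata1 value was −0.092 in odd and 0.54 in even erythroid-like cells. The erythroid-like cells of those sets need not be the same cells as among the 53. No order of Gata1 can be read in erythroid-like cells. Ordered instead by the first principal component of variable genes, the rank correlation of Gata2 was −0.021; that component had a rank correlation of 0.84 with the number of genes detected and 0.83 with the summed mitotic genes Plk1, Ccnb1, Cdc20 and Aurka. Without the highest bin the rank correlation of Gata2 with the score was −0.37. Markers of other cell types moved along the same bins: the summed level of 10 megakaryocyte markers had means of 905, 781, 366, 237 and 150 CPM from low to high score, that of 10 mast cell and basophil markers 436, 325, 288, 118 and 121 CPM, and that of 14 granulocyte-monocyte markers 278, 80, 83.6, 28 and 31 CPM. Of those lists, 9, 4 and 11 markers had a count in erythroid-like cells; Ppbp of platelets, Mcpt8 of basophils and Elane of granulocytes were at 0. Their part in the order of Gata2 was not tested.

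In CFU-E cells Gata1 was higher in bins of higher score, with a weak rank correlation from cell to cell. Its level was 270.6, 396, 449, 462 and 561 CPM in bins of 18, 18, 18, 18 and 17 cells from low to high score, with median cells at 275, 325, 435, 435 and 470 CPM. The 3 lymphoid-marker cells lie in the lowest bin, and without them the levels were 347, 404, 424, 476 and 561 CPM. Gata2 was at 0 CPM in 4 of the 5 bins and at 2.22 CPM in the second, where its single cell lies; a bin of 18 cells without a count allows up to 2.05 CPM. The rank correlation of Gata1 with the score over 89 cells was 0.34, and 0.27 over the 86 cells without lymphoid markers, 0.20 without the lowest bin and 0.17 along the first principal component.

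**Figure D4:**
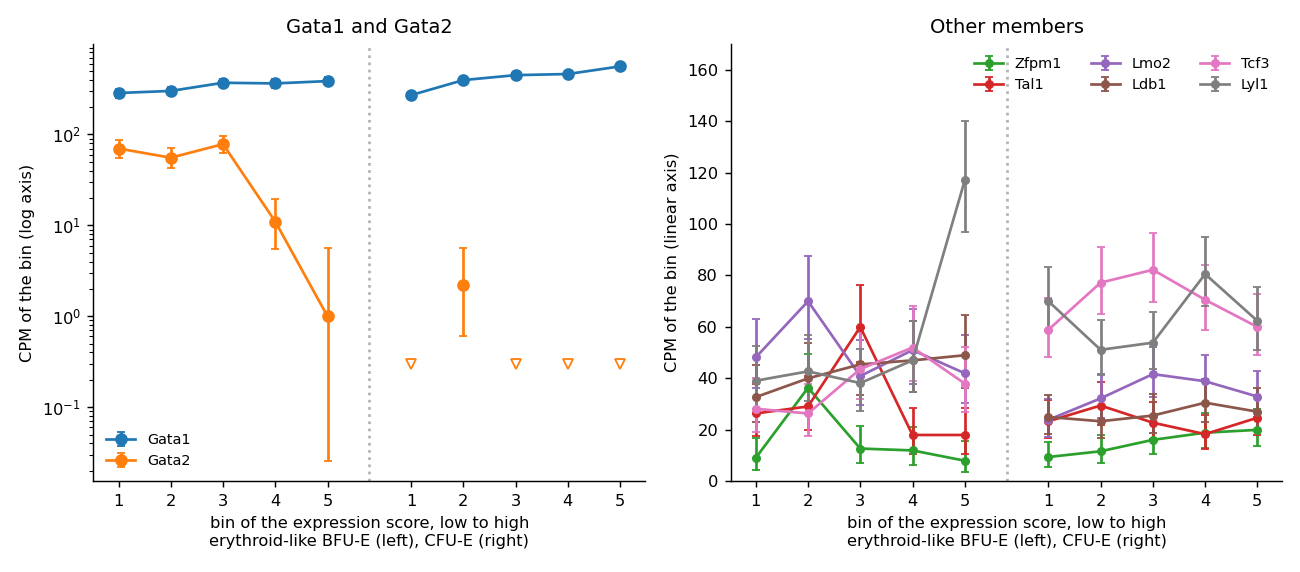
Summed CPM of Gata1 and Gata2 (left, log axis) and of the other 6 genes (right, linear axis from 0) in 5 bins of erythroid-like BFU-E cells and 5 bins of CFU-E cells, each from low to high score; bars are exact 95% counting intervals and open triangles mark bins with no Gata2 count. Gata2 drops to 11 and 1 CPM in the last 2 erythroid-like bins, while Gata1 stays between 285 and 386 CPM there.

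The partners did not follow the order of Gata2 over the whole range, but single bins stood apart in their summed counts. Over the 5 erythroid-like bins Zfpm1 stood at 9.09, 36.4, 12.7, 12 and 8 CPM, Tal1 at 26.4, 29.1, 60, 18 and 18 CPM, and Lmo2 at 48.2, 70, 40.9, 51 and 42 CPM. Zfpm1 and Lmo2 were highest in the second bin and Tal1 in the third, which includes the cell at 350 CPM. Between the third and the fourth bin, where Gata2 differed most, the counting intervals of Tal1 did not overlap, at 46.4 to 76.3 and 10.7 to 28.4 CPM. The median cell of Tal1 was at 10 CPM in both, and counting intervals leave out the spread between cells, so no difference of Tal1 is read there. Those of Zfpm1 did not overlap between the second and the third bin, at 25.98 to 49.5 and 6.96 to 21.4 CPM, with median cells at 30 and 0 CPM. Ldb1 was at 32.7, 40, 45.5, 47 and 49 CPM and Tcf3 at 28.2, 26.4, 43.6, 52 and 38 CPM. Lyl1 was at 39.1, 42.7, 38.2, 47 and 117 CPM, and the summed level of its last bin had a counting interval of 96.8 to 140.2 CPM. That bin includes cells at 340 and 230 CPM, and the counting interval leaves out the spread between cells. The median cell of Lyl1 was at 20, 30, 40, 35 and 95 CPM in the 5 bins. Rank correlations with the score were between −0.15 and 0.27 for these 6 genes in erythroid-like BFU-E cells and between −0.04 and 0.16 in CFU-E cells, values too small to read in sparse counts. In the CFU-E bins Zfpm1 was at 9.44, 11.7, 16.1, 18.9 and 20 CPM, and Tcf3 was at 58.9, 77.2, 82.2, 70.6 and 60 CPM.

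The assembly with TAL1 takes the products of Gata1, Tal1, Tcf3, Lmo2 and Ldb1. After thinning, 37 of 89 CFU-E cells (41.6%, 31.2 to 52.5) held counts of Gata1, Tal1, Lmo2, Ldb1 and Tcf3 at once, as did 19 of 53 erythroid-like BFU-E cells (35.8%, 23.1 to 50.2) and 2 of 39 granulocyte-monocyte-like BFU-E cells (5.13%, 0.627 to 17.3). With all counts the shares were 88.8% (80.3 to 94.5), 71.7% (57.7 to 83.2) and 17.9% (7.54 to 33.5). With Lyl1 allowed in place of Tal1, the thinned shares were 54 of 89 CFU-E (60.7%, 49.7 to 70.9), 26 of 53 erythroid-like (49.1%, 35.1 to 63.2) and 4 of 39 granulocyte-monocyte-like cells (10.3%, 2.87 to 24.2). At thinned counts, the shares of CFU-E and erythroid-like cells overlapped in their intervals, and that of granulocyte-monocyte-like cells was below both on either count. A Gata1 count was required, and 9 of 39 granulocyte-monocyte-like cells had one after thinning. Their low share thus in part restates the low detection of Gata1. The median cell held 6, 6 and 4 of the 8 genes in these 3 groups. Over the 28 pairs of the 8 genes, rank correlations across cells lay between −0.13 and 0.29 in CFU-E and between −0.32 and 0.23 in erythroid-like BFU-E cells, which at this sparseness give no pair that moved together from cell to cell.

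The genes whose pattern across cells was most like that of Gata1 and Gata2 were ranked by the rank correlation of thinned log2(CPM + 1). Over the 92 BFU-E cells and 8253 genes, those most like Gata1 were Mfsd2b, a lipid exporter of red cells and platelets (a rank correlation of 0.80), Samd14 (0.79), Epor (0.76), Grb10, an adaptor of receptor kinases (0.74), and Vamp5 (0.71). These 5 were also the kind of gene that separated the clusters: Mfsd2b was at 746 CPM in erythroid-like and 5.90 CPM in granulocyte-monocyte-like cells, and Samd14 at 122 and 0.513 CPM. Those most like Gata2 were Tuba8, a tubulin (0.47), Arhgef2 (0.47), Itga2b, the CD41 gene (0.46), Adgrg1 (0.43) and F2r, a thrombin receptor (0.43). All 5 were lower in CFU-E than in erythroid-like BFU-E cells, with Tuba8 at 0 against 84.5 CPM, Itga2b at 2.58 against 248 CPM, F2r at 93.5 against 872 CPM, Arhgef2 at 13.03 against 184 CPM and Adgrg1 at 107 against 504 CPM. Some also differed between the BFU-E clusters: in granulocyte-monocyte-like cells Tuba8, Itga2b and F2r were at 7.69, 21.03 and 46.2 CPM. Arhgef2 and Adgrg1 were at 157 and 584 CPM there, nearer their erythroid-like levels. Over the 89 CFU-E cells and 7547 genes, those most like Gata1 were Alad, an enzyme of heme synthesis (0.48), Mpp1 of the red cell membrane (0.42), Gmpr (0.41), Rab3il1 (0.39) and Fth1, ferritin heavy chain (0.39).

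Genes tied to the 8 by earlier work were described by list. Each list was counted over genes with a mean of at least 5 CPM in CFU-E against all BFU-E cells. The lists were chosen with earlier results of these data known, so their counts are a description and not a test. Of 29 measured genes that GATA1 is known to activate, 25 were higher by 2-fold or more in CFU-E cells and 2 were lower by as much, with a median log2 fold of 2.58, beside 6.48% and 33.9% of all genes and a median of −0.57. Klf1 was at 446 CPM in CFU-E and 106 CPM in BFU-E cells, 4.19-fold higher (3.91 to 4.50), and Epor at 392 and 80.5 CPM, 4.87-fold higher (4.50 to 5.28). The genes farthest up were Hba-a1, an alpha globin, at 507 against 2.83 CPM, Trim10 at 85.2 against 0.217 CPM, which is 2 counts, and Hbb-bt, a beta globin, at 125 against 1.09 CPM; reads of near-identical globin copies may have been split. The 2 lower genes were Nfe2, a subunit of the globin-enhancer factor NF-E2, at 54.04 against 135 CPM, and Bcl2l1, which encodes the survival protein BCL-XL, at 18.8 against 45.2 CPM. With erythroid-like BFU-E cells as the other side, 22 of 29 were higher and 3 lower, the third being Trim58. The median log2 fold of the list was 2.06, beside −0.53 over all measured genes. The list was counted in CPM, where Gata1 itself was 1.25-fold higher. Under TMM scaling Gata1 was 1.88-fold higher.

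**Figure D5:**
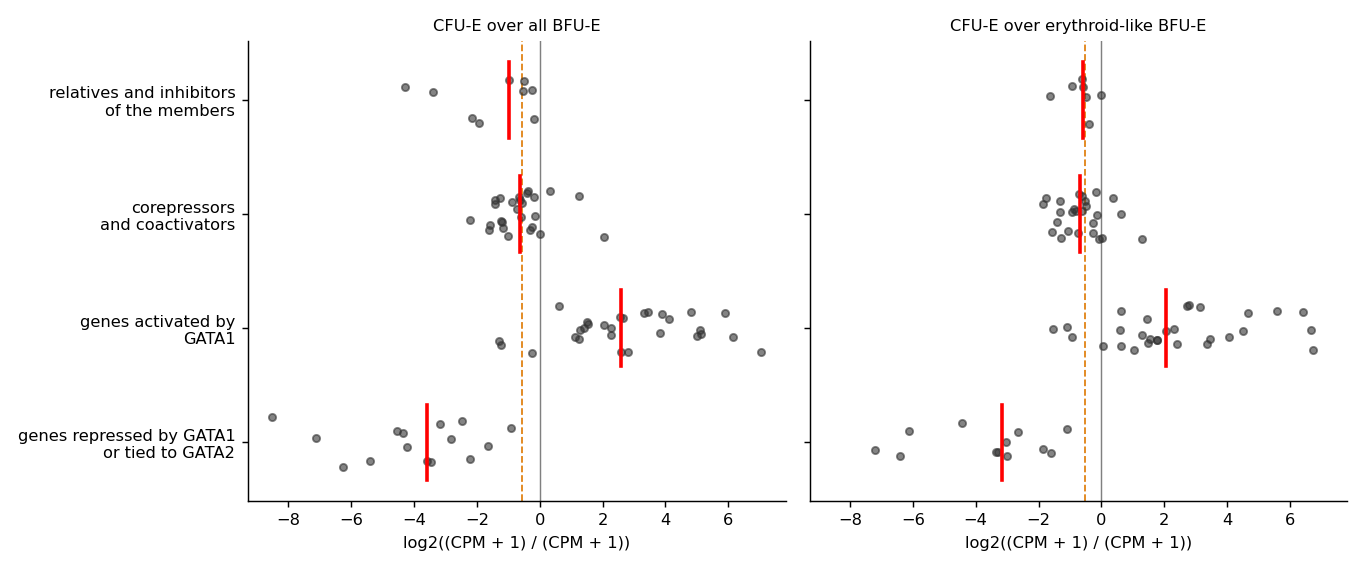
Log2 fold, as log2 of (CPM + 1) in CFU-E over (CPM + 1) in all BFU-E (left) or erythroid-like BFU-E cells (right), of the measured genes of 4 lists; points are genes, red bars are list medians and the dashed line is the median of all measured genes. Genes activated by GATA1 lie mostly to the right and genes repressed by GATA1 or tied to GATA2 to the left in both panels.

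Of 15 measured genes that GATA1 is known to repress or that are tied to GATA2, 0 were at least 2-fold higher and 14 lower in CFU-E cells, with a median of −3.60, or −4.95 with genes near the floor of 3 counts set at it. Cd34 was at 0.674 against 607 CPM, and Meis1, a homeobox factor of stem cells, at 2.02 against 231 CPM. Kit, the stem cell factor receptor that defines CD117, a sort antigen, was at 66.2 against 599 CPM, 9.05-fold lower (8.31 to 9.87), and Spi1, which encodes the GATA1 antagonist PU.1, at 3 counts against 23.8 CPM, a ratio of 70.6 (23.8 to 345). Myc, the 1 gene of the list that passed neither line, was at 296 against 554 CPM. Against erythroid-like BFU-E cells all 12 that could be measured were lower, with a median of −3.16; there Cd34 stood at 0.674 against 12.5 CPM and Kit at 66.2 against 688 CPM. Spi1, at 0.337 against 4.72 CPM, was under the 5 CPM needed to be measured there and is not among the 12, and in granulocyte-monocyte-like cells Cd34 and Spi1 stood at 1416 and 49.7 CPM.

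Among 20 relatives and inhibitors of the 8 proteins, 9 were measured, of which 0 were higher and 4 lower in CFU-E cells, with a median of −0.97. That count of lower genes stands beside 33.9% of all measured genes, so nothing particular to this list is read from it, and over erythroid-like BFU-E cells 1 of 7 was lower, beside 31.5%. The 4 were Id1, Id2 and Id3, whose products keep E proteins from DNA, and Tcf4, a second E protein gene. Id2 was at 0.112 against 20.5 CPM, Id3 at 2.47 against 35.1 CPM and Id1 at 4.04 against 18.2 CPM, but within the BFU-E plate erythroid-like cells held 1.32 CPM of Id2, 0.189 CPM of Id3 and 6.79 CPM of Id1, against 46.7, 82.6 and 33.6 CPM in granulocyte-monocyte-like cells. Tcf4 was at 28.5 CPM in CFU-E and 91.5 CPM in erythroid-like BFU-E cells, 3.21-fold lower (2.75 to 3.75), while its relative Tcf3 was higher in CFU-E cells. Among 28 corepressors and coactivators 26 were measured, with 2 higher, 10 lower and a median of −0.64, near the 6.48%, 33.9% and −0.57 of all genes. The higher ones were Klf1 and Gfi1b, a repressor of erythroid and megakaryocyte cells, at 274 against 115 CPM, and the lower ones included Runx1, at 29.8 against 141 CPM, and Cbfa2t2, at 30.9 against 95.8 CPM. TMM scaling gave 3 lower in place of 10.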

How the data were processed

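Libraries were made by the SmartSeq2 method, per the labels' protocols. The authors deposited whole-number counts of reads per gene, not normalized, made with STAR 2.4 and featureCounts on GRCm38, per the submitters' processing notes. Which annotation release was used, how multi-mapped reads were treated and whether strand was used is not given in the sources used here. Of 192 labelled cells, 191 matched a column by name; 1 CFU-E cell and 1 column were not used here.

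Cells under 100000 counts or 2000 genes were left out (6 CFU-E, 4 BFU-E), and the rest were thinned to 100000 counts (seed 1) and summed per group. Ratios carry exact conditional binomial intervals, levels exact Poisson and shares Clopper-Pearson intervals. A gene was measured at a mean of 5 CPM or more; log2 folds use log2(CPM + 1). Ward clustering of the BFU-E cells used 10 principal components of 1000 variable genes without the 8 genes, with the number of clusters set by silhouette; the rule that named a cluster granulocyte-monocyte-like (at least 3 of the markers above 20 CPM and above the other cells) was set after the data were seen. Lengths and positions came from GENCODE M21. Folds and clustering were tested on simulated data. TMM factors came from edgeR 4.0.16, used for scaling alone; Python 3.11.15 and SciPy 1.17.1 did the rest. No doublet caller was run on these singly sorted cells.

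The 8 genes and all lists were chosen with earlier results of these data known. Named genes were the 8, Klf1, Epor, Kit and Spi1, the 3 of each list with the largest absolute fold and the largest the other way, the 5 most like Gata1 or Gata2, and the 3 most abundant markers of other cell types, of which those touching a result are printed; 1 gene that the rule names is not reported here; others named for a short count were chosen after their values were seen. Alternatives covered the cell filter, depth, thinning seed, scaling, pseudocount, minimum level, odd and even label numbers, clustering, the order of cells and cells left out. With odd or even label numbers, the BFU-E cells were clustered anew within each set.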

Additional observations from a re-analysis of the deposited data

How the results depend on the processing

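Cells were sequenced as 1 plate per cell type, so differences between animals or plates have no estimate, and genes under 20 CPM rest on few counts per cell. No paired analysis was possible because the numbers that labels of both cell types share are cell numbers, and no test was made. Thinning to 10000 counts gave 1 of the 8 genes higher in CFU-E over BFU-E in place of 2, 3 higher within the BFU-E plate in place of 5, 1 lower gene activated by GATA1 in place of 2, and rank correlations with the score of −0.33 for Gata2 in erythroid-like and 0.19 for Gata1 in CFU-E cells. The 2 higher genes were also 1 without thinning and in odd and even label numbers. Over erythroid-like cells, 1 of the 8 was higher in place of 0 in odd cells, under TMM, under median-of-ratios and without erythroid-like cells that hold at least 3 granulocyte-monocyte markers (an alternative chosen after seeing the data), and 2 were lower in place of 1 in odd cells. The change in log2 Gata1 to Gata2 ratio was 8.79 over all BFU-E cells in odd cells, and over erythroid-like cells 8.33 in odd cells and 7.82 with seed 2. TMM and median-of-ratios gave 3 and 2 lower corepressors and coactivators in place of 10 and 0 lower genes activated by GATA1; with no minimum level, 7 relatives and inhibitors were lower in place of 4. In erythroid-like cells the rank correlation of Gata2 was −0.39 with seed 2 and −0.41 in odd cells. It was −0.021 along the first principal component and −0.37 without the highest bin. The rank correlation of Gata1, 0.07 over all erythroid-like cells, was −0.092 in odd and 0.54 in even cells. Each of those sets was clustered anew, and no order of Gata1 can be read there. In CFU-E cells the rank correlation of Gata1 was 0.17 along the first component and 0.20 without the lowest bin; leaving out bins and lymphoid-marker cells was chosen after seeing the data. With 3 bins in place of 5, Gata2 stood at 73.3, 51.1 and 7.06 CPM in erythroid-like cells from low to high score. The other 190 values that answer a comparison stayed within their limits, and of the values of single genes 152 did and 88 moved past them; the cause of these changes was not tested.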
